A study of Mus musculus with 16 samples.

Results

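The mitochondrially encoded respiratory genes are the protein-coding genes that the mitochondrial chromosome itself carries for the respiratory chain. They were taken by symbol: mt-Nd1, mt-Nd2, mt-Nd4, mt-Nd5 and mt-Nd6 of complex I, mt-Cytb of complex III, mt-Co1, mt-Co2 and mt-Co3 of complex IV and mt-Atp6 of complex V, which is 10 of the 53090 gene rows in each table. The tables hold 37 rows of mitochondrial genes in all, of which 13 are protein-coding, 2 are ribosomal RNAs and 22 are transfer RNAs. The 22 transfer RNA rows were at 0 in every library.

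The mouse mitochondrial genome is a small circle whose strands are called heavy and light. Each strand is transcribed from promoters in the control region into long precursors, which are cut at the transfer RNAs that punctuate the genes, and most of the resulting mRNAs receive a short poly(A) tail. Of these 10 genes, 9 are transcribed from the heavy strand and mt-Nd6 alone from the light strand. The proteins are core subunits that join a larger number of nuclear-encoded subunits in the inner membrane, and T cells are known to build up this machinery when they leave quiescence.

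RNA was measured in 16 libraries of splenic CD4+ T cells from mice on the C57BL/6 background, 4 in each of 4 groups. WT Tn and Aim2-/- Tn libraries came from freshly isolated naïve cells of wild-type mice and of mice lacking AIM2, a cytosolic DNA sensor. WT Treg and Aim2-/- Treg libraries came from naïve cells of the same genotypes kept for 48 h with anti-CD3 and anti-CD28 antibodies, TGF-beta and IL-2, so that activation, cytokines and time in culture cannot be told apart, and the age of the mice is not given in the sources used here. The libraries were made from poly(A) RNA with a stranded kit and read as single-end reads of 51 nt, and they held 22516424 to 34533316 expected counts each, which are the read numbers that RSEM estimates per gene. Whether equally numbered libraries came from separate mice is not stated, so the p-values measure the spread between these libraries.

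The labels were checked against the targeted gene and against marker lists. Aim2 lay at 32.3 to 43.3 CPM in the 8 WT libraries and at 6.61 to 10.8 CPM in the 8 Aim2-/- libraries. CPM is a gene's count over its library's total after TMM scaling, in the usual units. Summed CD4+ T cell markers were at 4870 to 6221 CPM in Tn and 2301 to 2662 in Treg libraries, naïve T cell markers at 3979 to 5718 and 658 to 1076, and Treg culture markers at 41.1 to 111 and 1893 to 2403. Foxp3 had at most 4.02 CPM in Tn and at least 278 CPM in Treg libraries. Il2ra made up most of the Treg culture sum, at 1300 to 1512 CPM in Treg libraries. Ctla4, in its higher row, overlapped between the states, at 12.8 to 80.6 CPM in Tn and 55.1 to 84.2 CPM in Treg libraries. In the culture comparisons below, 5 of the 7 rows of this list passed as higher in each genotype and 0 as lower. Of the 7, 2 had values below 0 in Aim2-/- cells. Markers of other cells were low: the B cell sum lay at 0.371 to 2.27 CPM, CD8 T cells at 2.26 to 12.2, NK cells at 0.304 to 15.1, myeloid cells at 0.236 to 8.59, erythroid cells at 0.0337 to 7.94 and platelets at 0.634 to 4.79, each lower in Treg than in Tn libraries on the highest value.

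For mt-Co1, mt-Co2, mt-Co3, mt-Atp6 and mt-Nd4 the sequence itself limits what the counts can say. On chromosome 1 (GRCm38, chr1:24611535-24616197, minus strand) a stretch of mitochondrial DNA is inserted in the nuclear genome, annotated as 7 unprocessed pseudogenes. Its copy of mt-Co2, Gm28661, was identical to mt-Co2 over all 681 of its bases, Gm28437 to mt-Co3 over 783 bases, Gm10925 to mt-Atp6 over 678 bases and Gm29216 to the last 479 bases of mt-Co1. Windows of one read length (51 bases) that also occurred in a nuclear transcript made up 100% of mt-Co2, 99.9% of mt-Co3, 99.5% of mt-Atp6, 62.2% of mt-Nd4 and 50.6% of mt-Co1, but 8.0% of mt-Nd2, 7.22% of mt-Nd5 and 0 of the windows of mt-Nd1, mt-Nd6 and mt-Cytb. The 60 bases where the copy of mt-Co1 begins are shown to mark where the genome's versions stop differing, with the differing bases in capitals and everything after them identical to the end of the gene (GENCODE M21 transcripts, GRCm38, chrM:6381-6440 and chr1:24616138-24616197):
mt-Co1: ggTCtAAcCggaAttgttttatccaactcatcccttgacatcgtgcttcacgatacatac
Gm29216: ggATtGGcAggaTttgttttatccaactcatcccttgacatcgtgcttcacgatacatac

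The first 60 bases of mt-Co3 (chrM:8607-8666) and of its copy (chr1:24613912-24613971) show a pair that no read within them could separate, and there are no capitals because no base differed:
mt-Co3: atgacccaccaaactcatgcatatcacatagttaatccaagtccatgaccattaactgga
Gm28437: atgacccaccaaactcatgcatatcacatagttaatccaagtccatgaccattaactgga

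By contrast, a nuclear relative of mt-Nd6, Gm11408 on chromosome 4, differed from it at 30 of 496 aligned bases. The first 60 bases of both (chrM:14011-14070 and chr4:80003855-80003914, minus strand) differ at the bases in capitals, and no 51-base window of mt-Nd6 occurred in a nuclear transcript:
mt-Nd6: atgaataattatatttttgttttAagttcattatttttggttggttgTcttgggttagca
Gm11408: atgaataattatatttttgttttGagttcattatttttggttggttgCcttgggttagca

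The counts followed these sequences in part. The expected counts of mt-Co1, mt-Co2, mt-Co3 and mt-Atp6 were not whole numbers in any of the 16 libraries, whereas those of mt-Nd1, mt-Nd4, mt-Nd5, mt-Nd6 and mt-Cytb were whole in all of them. Of the count shared by mt-Co3 and Gm28437, at least 92.8% stood on the nuclear copy in every library, of mt-Atp6 and Gm10925 83.3 to 94.7%, of mt-Co2 and Gm28661 81.5 to 97.6% and of mt-Co1 and Gm29216 9.61 to 20.1%. The copy of mt-Nd4, Gm28439, was at 0 in every library although it shares 876 identical bases. The rows of mt-Co2, mt-Co3 and mt-Atp6 therefore hold the minor part of the reads that match these genes, and each value below is given as deposited and, where it matters, after pooling each gene with its nuclear copies, an alternative chosen after seeing the data.

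**Figure D1:**
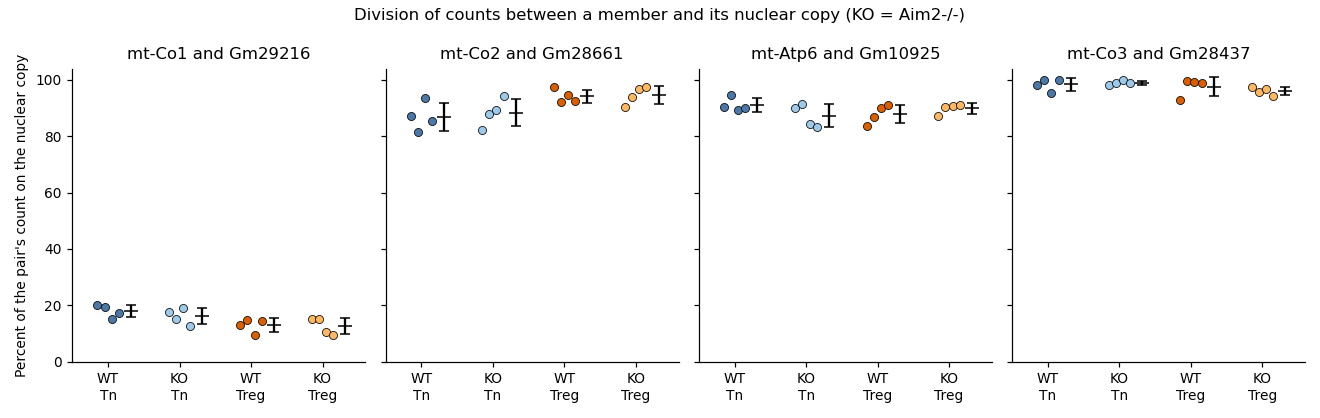
Percent of the summed count of a mitochondrial gene and its nuclear copy that stood on the copy (vertical axis, percent), for 4 pairs, with 1 point per library in the 4 groups (KO is Aim2-/-) and a bar for the mean ± SD (n = 4). The copy held over 80% of the pair in every library for mt-Co2, mt-Atp6 and mt-Co3 and at most 20.1% for mt-Co1.

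The 10 genes together took 1.00 to 2.02% of a library's counts, and 1.41 to 3.02% with the copies. As deposited the share was 1.47, 1.05, 1.49 and 1.22% in WT Tn replicates 1 to 4, 1.13, 2.02, 1.32 and 1.42% in Aim2-/- Tn, 1.22, 1.00, 1.35 and 1.13% in WT Treg and 1.29, 1.13, 1.04 and 1.5% in Aim2-/- Treg libraries. All 4 groups overlapped, and the range within each group was wider than the distance between any pair of group means. The highest library of the 16 was Aim2-/- Tn replicate 2.

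Per length, and pooled with the copies, the genes ranked in WT Tn cells from mt-Co1, the catalytic subunit of cytochrome c oxidase, with 5252 ± 716 CPM per kb (SD, n = 4) to mt-Nd5 with 475 ± 74.0. Between them stood mt-Co2 (2867 ± 516), mt-Atp6 (2476 ± 642), mt-Co3 (2435 ± 426) and mt-Cytb (1946 ± 303), and then, at a lower level, mt-Nd1 (861 ± 171), mt-Nd4 (797 ± 169), mt-Nd6 (550 ± 101) and mt-Nd2 (532 ± 133). The neighbours from mt-Co2 to mt-Co3, mt-Nd1 with mt-Nd4, and mt-Nd6 with mt-Nd2 and mt-Nd5 differed by less than the larger SD of each pair, whereas the other steps were larger than that. In WT Treg cells the order of CPM per kb was mt-Co1 (3760 ± 452), mt-Co2 (2493 ± 298), mt-Cytb (2150 ± 209), mt-Atp6 (1948 ± 298), mt-Co3 (1872 ± 282), mt-Nd1 (1393 ± 130), mt-Nd4 (625 ± 78.6), mt-Nd2 (610 ± 97.9), mt-Nd5 (461 ± 57.2) and mt-Nd6 (413 ± 51.1). Here mt-Cytb, mt-Atp6 and mt-Co3, mt-Nd4 with mt-Nd2, and mt-Nd5 with mt-Nd6 were neighbours within the larger SD. mt-Nd1 stood next to mt-Nd4 in Tn and well above it in Treg cells, and mt-Nd6 moved to the last place.

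**Figure D2:**
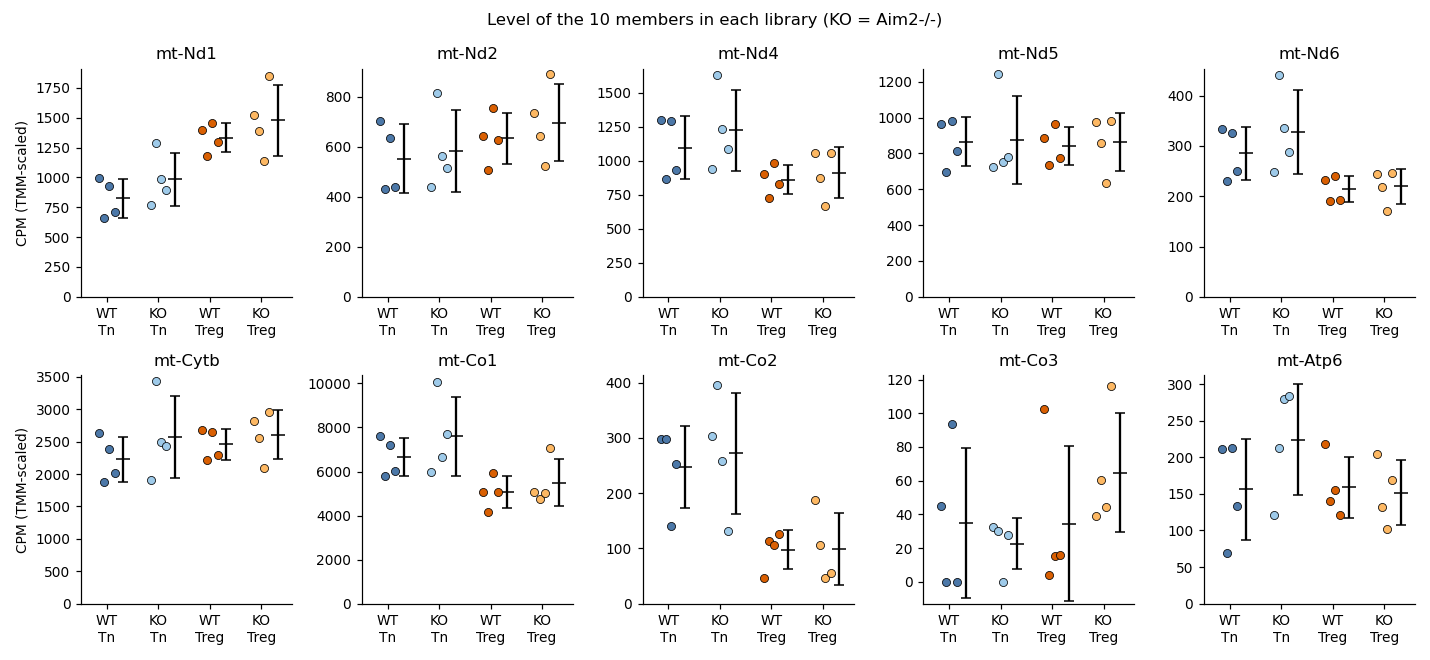
Level of each of the 10 genes as deposited (vertical axis, CPM after TMM scaling, starting at 0 except where an SD reaches below it) with 1 point per library and a bar for the mean ± SD (n = 4 per group; KO is Aim2-/-). mt-Nd1 is higher in Treg than in Tn cells, mt-Nd4, mt-Nd6, mt-Co1 and mt-Co2 are lower on the mean, and Aim2-/- Tn replicate 2 is the highest Tn library for 8 of the genes.

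Culture under Treg conditions changed these genes in both directions. In WT cells 5 of the 10 passed the test, 1 higher and 4 lower (median log2 fold change -0.06). Among Aim2-/- libraries 4 passed, 1 higher and 3 lower (median -0.23). Of all genes tested, 76.9% passed in WT (37.7% higher and 39.2% lower, median -0.05) and 79.3% in Aim2-/- cells (39.1% higher and 40.2% lower, median -0.04), so the share among the mitochondrial genes was below that background in both genotypes. The comparisons of the genotypes use different libraries. The differences that follow are log2 fold changes of Treg against Tn, each with the p of an edgeR quasi-likelihood fit adjusted over all genes by the Benjamini-Hochberg method. In bulk RNA, a change in the share of cells that express a gene and a change in the RNA per cell cannot be told apart.

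Complex I subunits went separate ways. mt-Nd1 (chrM:2751-3707), which sits at the membrane arm's junction with the ubiquinone site and is the first coding gene after the ribosomal RNAs, had 998, 664, 927 and 708 CPM in WT Tn and 1399, 1176, 1459 and 1298 CPM in WT Treg replicates 1 to 4. The WT groups did not overlap. In Aim2-/- cells it had 769, 1287, 982 and 891 CPM in Tn and 1526, 1389, 1141 and 1852 CPM in Treg libraries, and here replicate 3 of Treg lay below replicate 2 of Tn. mt-Nd1 rose by 0.66 in WT (SE 0.14, adjusted p = 0.00136) and by 0.58 in Aim2-/- cells (SE 0.18, adjusted p = 0.0111). The WT call held in all 23 alternatives and the Aim2-/- call in 20, being lost with replicates 1 and 2 only (0.47, adjusted p = 0.110), without Aim2-/- Tn replicate 1 (0.42, adjusted p = 0.0526) and without Aim2-/- Tn replicate 4 (0.47, adjusted p = 0.0508).

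mt-Nd4 (chrM:10167-11544), a proton-pumping subunit of the membrane arm, had 1302, 863, 1295 and 931 CPM in WT Tn and 907, 729, 981 and 827 CPM in WT Treg libraries. In Aim2-/- cells it had 939, 1631, 1236 and 1088 CPM in Tn and 1060, 871, 669 and 1057 CPM in Treg libraries, and the groups overlapped in both genotypes. It fell by 0.38 in WT (SE 0.15, adjusted p = 0.0421), while the Aim2-/- value was -0.43 (SE 0.19, adjusted p = 0.0570). The WT call was near the threshold and held in 8 of 23 alternatives, with adjusted p from 0.0079 to 0.166 when 1 library was left out; it was lost in 6 of these 8 fits, those without WT Tn replicate 1 (-0.31) or 3 (-0.30) or without WT Treg replicate 1 (-0.36), 2 (-0.27), 3 (-0.40) or 4 (-0.32). The gene passed in Aim2-/- cells without Aim2-/- Tn replicate 1 (-0.60, adjusted p = 0.0148) and without Aim2-/- Tn replicate 4 (-0.54, adjusted p = 0.0348).

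mt-Nd6 (chrM:13552-14070), the light-strand gene, had 334, 230, 326 and 251 CPM in WT Tn and 233, 190, 241 and 193 CPM in WT Treg libraries. The Aim2-/- levels were 248, 441, 337 and 289 CPM in Tn and 244, 219, 170 and 247 CPM in Treg libraries. The Aim2-/- groups just failed to overlap while in WT the lowest Tn library lay below the 2 highest Treg libraries. mt-Nd6 fell by 0.45 in WT (SE 0.14, adjusted p = 0.0147) and by 0.59 in Aim2-/- cells (SE 0.18, adjusted p = 0.0109). With offsets for GC content and length, the values were 0.07 (adjusted p = 0.521) and -0.03 (adjusted p = 0.869), so that neither call held; mt-Nd6 has a GC content of 34.1% and a length of 519 bases, both the lowest of the 10 genes. The WT call was also lost without WT Treg replicate 2 (-0.35, adjusted p = 0.0699) and without WT Treg replicate 4 (-0.35, adjusted p = 0.0650).

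mt-Nd2 (chrM:3914-4951) and mt-Nd5 (chrM:11742-13565), the other proton-pumping subunits among these genes, passed in neither genotype in the fits without such offsets. mt-Nd2 lay at 432 to 702 CPM in WT Tn, 507 to 756 in WT Treg, 437 to 815 in Aim2-/- Tn and 521 to 889 CPM in Aim2-/- Treg libraries, with log2 differences of 0.16 (SE 0.18) and 0.25 (SE 0.20). With offsets for GC content and length mt-Nd2 passed in Aim2-/- cells (0.44, adjusted p = 0.0458), and with these offsets and the replicate block it passed in WT (0.28, adjusted p = 0.0088). mt-Nd5 lay at 698 to 983, 736 to 964, 725 to 1243 and 637 to 981 CPM in the same groups, with log2 differences of -0.07 (SE 0.12) and -0.03 (SE 0.19). All 4 groups overlapped for both genes.

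mt-Cytb (chrM:14145-15288), the cytochrome b of complex III and the only subunit of that complex that the mitochondrion encodes, had 2635, 1872, 2383 and 2018 CPM in WT Tn and 2675, 2211, 2654 and 2301 CPM in WT Treg libraries. In Aim2-/- cells it had 1912, 3444, 2502 and 2436 CPM in Tn and 2821, 2564, 2094 and 2958 CPM in Treg libraries. The groups overlapped in both genotypes. The log2 differences were 0.11 in WT (SE 0.11, adjusted p = 0.388) and 0.01 in Aim2-/- cells (SE 0.17, adjusted p = 0.964). None of its read-length windows is shared with a nuclear transcript.

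Of the complex IV subunits, mt-Co1 and mt-Co3 fell with culture in both genotypes when counted together with their copies, and mt-Co2 did not pass. mt-Co1 (chrM:5328-6872) had 7604, 5787, 7201 and 6036 CPM in WT Tn and 5088, 4150, 5935 and 5084 CPM in WT Treg libraries as deposited, and 5981, 10067, 6655 and 7709 against 5091, 4763, 5004 and 7074 CPM in Aim2-/- cells. The highest Treg library lay above the lowest Tn library in both genotypes. It fell by 0.43 in WT (SE 0.12, adjusted p = 0.00849) and by 0.48 in Aim2-/- cells (SE 0.17, adjusted p = 0.0245), and by 0.52 (adjusted p = 0.00191) and 0.54 (adjusted p = 0.00838) when pooled with its copies. The Aim2-/- call as deposited was lost without Aim2-/- Treg replicate 1 (-0.41, adjusted p = 0.0747), 2 (-0.38, adjusted p = 0.0991) or 3 (-0.40, adjusted p = 0.0911). The copy Gm29216 alone fell by 1.00 (SE 0.15) and 0.91 (SE 0.17).

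mt-Co2 (chrM:7013-7696), which holds the copper centre that takes electrons from cytochrome c, showed how far the division of reads can move a value. As deposited it had 297, 298, 141 and 252 CPM in WT Tn and 45.7, 113, 106 and 126 CPM in WT Treg libraries, without overlap, and 304, 395, 258 and 131 against 188, 105.4, 46.7 and 54.8 CPM in Aim2-/- cells, where replicate 1 of Treg lay above replicate 4 of Tn. It fell by 1.37 in WT (SE 0.33, adjusted p = 0.00386) and by 1.47 in Aim2-/- cells (SE 0.45, adjusted p = 0.0117), the largest values among the genes that passed. Gm28661, which holds the same sequence, had 1311 to 2054 CPM in WT Tn and 1328 to 1830 CPM in WT Treg libraries, and pooled with it the difference was -0.23 (SE 0.13, adjusted p = 0.132) in WT and -0.37 (SE 0.19, adjusted p = 0.0867) in Aim2-/- cells. Neither pooled value passed the test, and the Aim2-/- call as deposited was lost without Aim2-/- Treg replicate 4 (-1.23, adjusted p = 0.0628).

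mt-Co3 (chrM:8607-9390), the remaining mitochondrial subunit of complex IV, had as deposited 44.9, 0.12, 93.9 and 0.10 CPM in WT Tn, 103, 4.08, 15.1 and 16.1 in WT Treg, 32.2, 30.4, 0.11 and 27.7 in Aim2-/- Tn and 38.8, 60.2, 44.1 and 116 CPM in Aim2-/- Treg libraries. In 3 of the Tn libraries it stood at about the level that 3 counts give there (0.108 to 0.114 CPM), and the log2 differences, -0.04 (SE 1.51) and 1.5 (SE 0.88), passed in neither genotype. Without Aim2-/- Tn replicate 3, one of these libraries, the Aim2-/- value was 1.04 (adjusted p = 0.0253). Pooled with Gm28437 it lay at 1615 to 2835 CPM in the 8 Tn and 1190 to 2035 CPM in the 8 Treg libraries. The pooled row fell by 0.41 in WT (SE 0.14, adjusted p = 0.0219) and by 0.54 in Aim2-/- cells (SE 0.17, adjusted p = 0.0136), so that pooling turned the direction in Aim2-/- cells.

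mt-Atp6 (chrM:7927-8607), the subunit of ATP synthase that forms the proton path beside the rotor, had as deposited 211, 69.2, 213 and 133 CPM in WT Tn, 218, 140, 155 and 122 in WT Treg, 121, 213, 279 and 284 in Aim2-/- Tn and 204, 132, 102 and 169 CPM in Aim2-/- Treg libraries. All 4 groups overlapped. The log2 differences were -0.01 (SE 0.33) and -0.57 (SE 0.27, adjusted p = 0.0775) as deposited and -0.38 (SE 0.18, adjusted p = 0.0855) and -0.27 (SE 0.22, adjusted p = 0.264) pooled with Gm10925, and none of the 4 passed. Without Aim2-/- Tn replicate 1 the value as deposited was -0.84 in Aim2-/- cells (adjusted p = 0.00702).

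**Figure D3:**
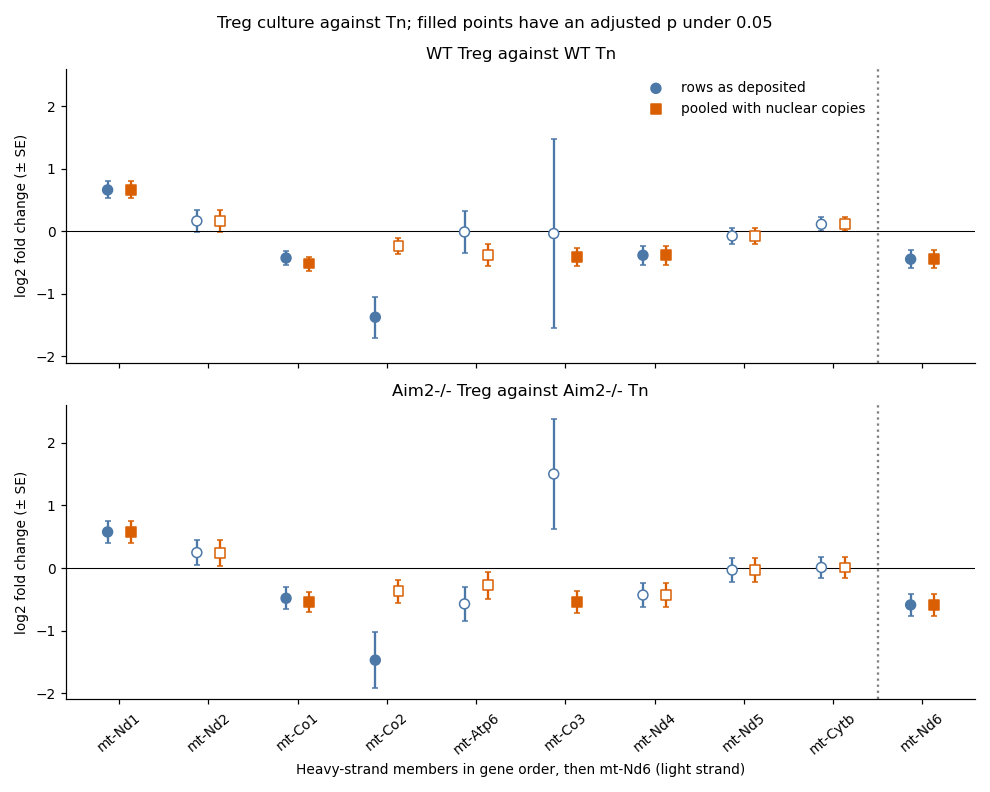
Log2 fold change of Treg against Tn cells (vertical axis, ± SE) for the 9 heavy-strand genes in the order they lie on the chromosome and for mt-Nd6, in WT (top) and Aim2-/- cells (bottom), as deposited (circles) and pooled with nuclear copies (squares), filled where the adjusted p was under 0.05. mt-Nd1 lies above 0, the genes from mt-Co1 to mt-Nd4 lie below it when pooled, mt-Nd5 and mt-Cytb lie near 0, and mt-Co2 and mt-Co3 move most between the ways of counting.

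The genes did not all move one way, although 9 of them are cut from transcripts of the same strand. Ordered along the heavy strand, the pooled WT values were 0.66 for mt-Nd1, 0.16 for mt-Nd2, -0.52 for mt-Co1, -0.23 for mt-Co2, -0.38 for mt-Atp6, -0.41 for mt-Co3, -0.38 for mt-Nd4, -0.08 for mt-Nd5 and 0.11 for mt-Cytb. Of the other 3 protein-coding rows, mt-Atp8, which lies between mt-Co2 and mt-Atp6, had a pooled WT value of -0.76 (SE 0.44, adjusted p = 0.142), while mt-Nd3 and mt-Nd4l, which lie between mt-Co3 and mt-Nd4, had pooled WT values of 0.41 (adjusted p = 0.114) and 0.11 (adjusted p = 0.412). In Aim2-/- cells the pooled value of mt-Atp8 had the other sign, at 0.16 (SE 0.33, adjusted p = 0.670). Those of mt-Nd3 and mt-Nd4l were 0.54 (adjusted p = 0.0651) and 0.19 (adjusted p = 0.455).

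Ratios inside a library do not depend on how libraries are scaled to each other, and they were far tighter than the levels. The count of mt-Nd1 was 37.9, 35.5, 38.91 and 35.1% of the mt-Cytb count in WT Tn, 40.2, 37.4, 39.3 and 36.6% in Aim2-/- Tn, 52.3, 53.2, 55.0 and 56.4% in WT Treg and 54.1, 54.2, 54.5 and 62.6% in Aim2-/- Treg libraries. Every Treg library lay above every Tn library, whereas the genotypes overlapped in both states. The level of mt-Nd1 itself, by comparison, varied 2.79-fold over the 16 libraries and overlapped between the states.

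The ratios of mt-Nd4, mt-Nd6 and mt-Co1 to mt-Cytb were lower in Treg than in Tn libraries. mt-Nd4 was at 44.7 to 54.3% of the mt-Cytb count in the 8 Tn and 31.9 to 37.6% in the 8 Treg libraries, mt-Nd6 at 11.9 to 13.7% and 8.14 to 9.08%, and mt-Co1 at 266 to 316% and 181 to 239%. None of these overlapped between the states, and each overlapped between the genotypes within a state. mt-Nd2 (21.2 to 26.7% and 22.9 to 30.0%) and mt-Nd5 (30.1 to 41.2% and 30.4 to 36.3%) overlapped between the states. Among Treg libraries the mt-Co1 ratio was 190, 188, 224 and 221% in WT and 181, 186, 239 and 239% in Aim2-/- replicates 1 to 4, so replicates 3 and 4 lay above replicates 1 and 2 in both genotypes. These ratios were chosen after the levels had been seen and are given as a description, with no test.

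**Figure D4:**
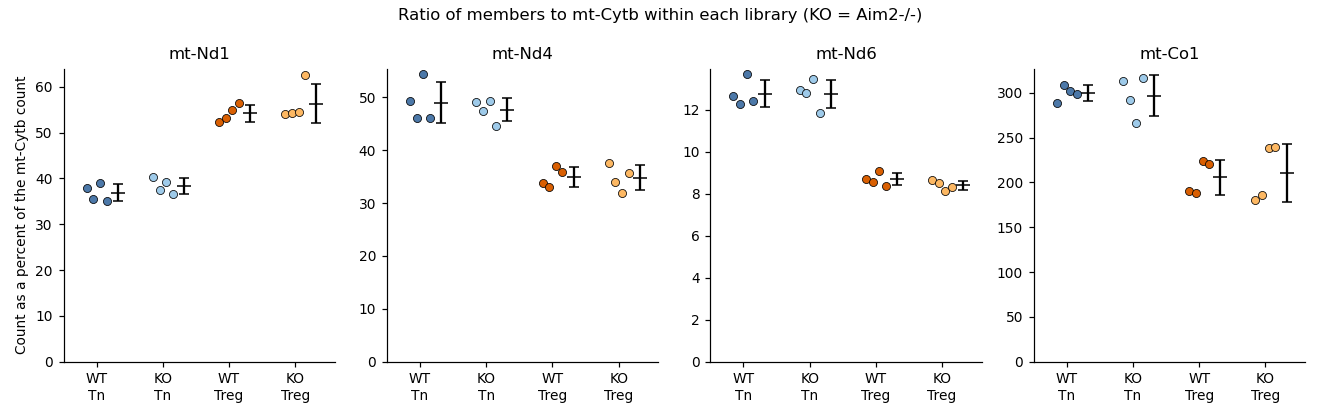
Count of mt-Nd1, mt-Nd4, mt-Nd6 and mt-Co1 as a percent of the mt-Cytb count of the same library (vertical axis, starting at 0), with 1 point per library and a bar for the mean ± SD (n = 4 per group; KO is Aim2-/-). The 8 Treg libraries lie above the 8 Tn libraries for mt-Nd1 and below them for the other genes, without overlap.

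The same shift appeared as a share of the pool of 10 genes with their copies. mt-Nd1 made up 4.02 to 4.66% of the pool in the 8 Tn and 7.69 to 8.42% in the 8 Treg libraries. mt-Cytb made up 11.2 to 11.9% and 13.5 to 15.7%, and mt-Nd2 2.45 to 3.02% and 3.52 to 4.04%. mt-Co1 went from 39.1 to 43.4% in Tn to 32.5 to 37.8% in Treg libraries, mt-Co3 from 9.45 to 10.98% to 8.15 to 9.35% and mt-Nd6 from 1.37 to 1.60% to 1.12 to 1.36%. These 6 shares did not overlap between the states, and the shares of mt-Nd4, mt-Nd5, mt-Co2 and mt-Atp6 did. A share falls when another rises, so these 6 are not separate observations.

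The ratio of the light-strand gene to the heavy-strand genes was tested as the count of mt-Nd6 over the summed count of the other 9 genes. It was 2.26, 2.16, 2.35 and 2.21% in WT Tn, 2.21, 2.30, 2.55 and 2.08% in Aim2-/- Tn, 1.95, 1.94, 1.85 and 1.73% in WT Treg and 1.93, 1.92, 1.66 and 1.63% in Aim2-/- Treg libraries. Every Treg library lay below every Tn library. The mean log2 ratio changed by -0.27 from Tn to Treg in WT and by -0.36 in Aim2-/- cells. Each had p = 0.0286 in a two-sided exact permutation test, the smallest p that 70 arrangements allow. The adjusted p was 0.0571 over the 4 comparisons, which did not pass 0.05. With both culture comparisons at this smallest p, neither could pass unless a comparison of genotypes reached it too, so the adjusted p cannot decide here. Between the genotypes the log2 ratio differed by 0.02 in Tn (p = 0.800, adjusted p = 0.800, same exact test) and by -0.07 in Treg cells (p = 0.314, adjusted p = 0.419, same exact test). Against the other complex I genes alone the changes with culture were -0.55 and -0.68. These are counts of poly(A) RNA, so the ratio does not measure how much either strand was transcribed. A bias from GC content or length can stay in such a ratio, and its part here was not tested. With offsets for these the level of mt-Nd6 differed by 0.07 (WT) and -0.03 (Aim2-/-) with culture. The offsets also move other genes, such as mt-Nd2 in Aim2-/- cells from 0.25 to 0.44, and the ratio was not computed with them. mt-Nd5 and mt-Nd6 overlap by 14 bases on opposite strands, and the strand setting of the counting is not given in the sources used here. A set of 27 genes inside exons of an expressed gene on the opposite strand of the nuclear genome had a median of 0.756% of that gene's level per kb. Of the 27, 20 lay under 5%, and the highest lay at 241%.

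Loss of Aim2 was the study's question, and none of the 10 genes passed the test between genotypes in either state. In Tn cells edgeR called 0 of the 10, against 0.231% of all genes tested (0.134% higher and 0.0967% lower), and no unadjusted p was under 0.05 (0 of 10). As deposited, the log2 values of Aim2-/- against WT were above 0 for 9 of the 10, with a median of 0.18 beside 0.01 over all genes. The exception was mt-Co3 (-0.61, SE 1.68), which was above 0 when pooled with its copy (0.26, SE 0.17, adjusted p = 0.612). mt-Nd1 had the smallest p as deposited, at a log2 difference of 0.26 (SE 0.18, adjusted p = 0.628), followed by mt-Atp6 at 0.52 (SE 0.40, adjusted p = 0.674) and mt-Cytb at 0.21 (SE 0.17, adjusted p = 0.686). After pooling, mt-Atp6 was at 0.09 (SE 0.23, adjusted p = 0.915), and mt-Co2 had the smallest p, at 0.30 (SE 0.19, adjusted p = 0.601). DESeq2 and limma-voom also called 0 of the 10.

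Of all Tn libraries, Aim2-/- Tn replicate 2 moved the median genotype difference most when left out. Its mt-Nd1 level of 1287 CPM stood beside 769 to 982 CPM in the other Aim2-/- Tn and 664 to 998 CPM in the WT Tn libraries, and its mt-Nd5 level of 1243 CPM beside 725 to 782 and 698 to 983 CPM. Over the 7 genes other than mt-Co2, mt-Co3 and mt-Atp6 the median difference was 0.20 with all libraries (range 0.02 to 0.26) and 0.02 without that library (range -0.21 to 0.09). Leaving out 1 of the other libraries gave medians from 0.12 (WT Tn replicate 2) to 0.29 (Aim2-/- Tn replicate 1). With replicates 3 and 4 only, the median was 0.11. Erythroid markers moved with the genotype in Tn cells, at a summed 1.23 to 3.97 CPM in WT and 5.13 to 7.94 CPM in Aim2-/- libraries over 4 globin genes and Alas2. Hbb-bs, the highest of them, had at most 3.25 CPM and Alas2 at most 0.283 CPM. Their part in the mitochondrial values was not tested.

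In Treg cells edgeR called 0 of the 10, against 0.219% of all genes tested (0.129% higher and 0.0908% lower), no unadjusted p was under 0.05 (0 of 10), and DESeq2 and limma-voom called 0. As deposited, the log2 values of Aim2-/- against WT were above 0 for 9 of the 10, with a median of 0.08 beside a median of 0.00042 over all genes. They went from -0.07 for mt-Atp6 (SE 0.24) to 0.90 for mt-Co3 (SE 0.84). After pooling with the copies these genes were at 0.16 (SE 0.16) and 0.10 (SE 0.15). mt-Nd1 had 0.14 (SE 0.13), mt-Cytb 0.08 (SE 0.11) and mt-Co1 0.11 (SE 0.14), all with an adjusted p of 0.999. The median of the 7 genes was 0.08, and -0.0019 without Aim2-/- Treg replicate 4. Leaving out 1 of the other libraries gave medians from 0.03 (WT Treg replicate 2) to 0.17 (Aim2-/- Treg replicate 3).

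The genotype effects of the states were also compared with each other in a fit over all 16 libraries. None of the 10 genes passed, no unadjusted p was under 0.05 (0 of 10) and DESeq2 and limma-voom called 0, against 0.0205% of all genes tested by edgeR. The difference of the log2 effects, Treg minus Tn, was -0.11 for mt-Nd1 (SE 0.24), -0.16 for mt-Nd6 (SE 0.24), -0.12 for mt-Cytb (SE 0.22) and -0.08 for mt-Co1 (SE 0.23).

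Of the mitochondrial rows outside the 10 genes, 5 had counts. mt-Rnr2 and mt-Rnr1, the ribosomal RNAs, had 199 to 547 and 81.5 to 243 CPM over the 16 libraries, and per kb they stood below all 10 genes pooled with their copies. The libraries were made from poly(A) RNA, so this rank does not give the amounts of ribosomal RNA in the cells. mt-Rnr2 rose by 0.43 in WT cells with culture (SE 0.14, adjusted p = 0.0176), while its Aim2-/- value was 0.37 (SE 0.19, adjusted p = 0.0955). mt-Nd3 rose by 0.97 in WT cells as deposited (SE 0.27, adjusted p = 0.00908), but it shares 98.0% of its windows with Gm28438 and pooled with it the value was 0.41 (adjusted p = 0.114). mt-Atp8 and mt-Nd4l, small subunits of complexes V and I, passed in neither genotype. As deposited they were at -0.76 (SE 0.44) and 0.22 (SE 0.10) in WT and at 0.16 (SE 0.31) and 0.19 (SE 0.22) in Aim2-/- cells. None of these 5 rows passed between the genotypes in either state.

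Most nuclear-encoded partners rose during culture. Of 74 rows for nuclear subunits of complexes I, III, IV and V, 64 rose and 3 fell in WT cells, with a median of 0.78, and 59 rose and 6 fell in Aim2-/- cells, with a median of 0.72. Of all genes tested, 37.7% were called higher and 39.2% lower in WT, and 39.1% and 40.2% in Aim2-/- cells. In WT cells the medians were 0.67 over 37 complex I rows, 0.95 over 10 complex III rows, 0.85 over 11 complex IV rows and 0.79 over 16 complex V rows. Complex II, which has no mitochondrially encoded subunit, had a median of 0.73 over 4 rows in both genotypes, and all 4 rose. The pooled values of mt-Cytb, mt-Co1, mt-Co2, mt-Co3 and mt-Atp6 in WT cells, 0.11, -0.52, -0.23, -0.41 and -0.38, all lay below the median of the nuclear subunits of their own complex. Of the complex I genes, mt-Nd1 lay close to the median of its nuclear partners in WT cells, at 0.66 beside 0.67. mt-Nd2, mt-Nd4, mt-Nd5 and mt-Nd6 lay lower, at 0.16, -0.38, -0.08 and -0.45. No test of the difference between the genomes was made.

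Among the nuclear subunits, Cox5a, an early-assembling subunit of complex IV, rose from 48.0 ± 1.34 to 174 ± 11.2 CPM (SD, n = 4) in WT cells, a log2 fold change of 1.83 (adjusted p = 1.3e-08), and Cox7b rose by 0.91. Cyc1, the cytochrome c1 of complex III, rose by 1.25 and Uqcr10 by 1.22, while Uqcrh fell by 0.48. In complex I Ndufa12 rose by 2.00 and Ndufb2 by 1.45, while Ndufa6 fell by 0.93 and Ndufv3 by 0.71. Atp5b, the catalytic beta subunit of ATP synthase, rose from 648 ± 30.9 to 1653 ± 47.2 CPM (SD, n = 4), a log2 fold change of 1.32 (adjusted p = 2.85e-08), and its inhibitor Atpif1 rose by 2.23. In complex II, Sdhd rose by 1.33 and Sdhb by 0.83. Ndufb6, Ndufs1, Ndufa4, Atp5g3 and Sdha rose in Aim2-/- cells by 1.31, 0.93, 1.17, 1.47 and 0.59, and in WT cells by 1.34, 0.92, 1.23, 1.42 and 0.55.

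**Figure D5:**
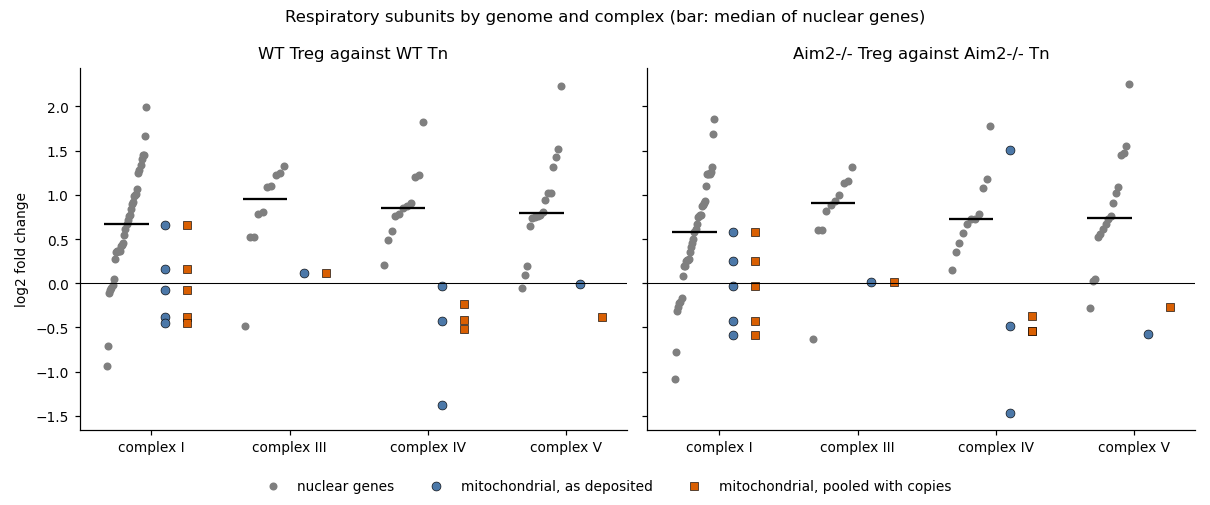
Log2 fold change of Treg against Tn cells (vertical axis) for nuclear-encoded subunits (grey, 1 point per row, bar at their median) and mitochondrially encoded subunits as deposited (circles) and pooled with nuclear copies (squares), by respiratory complex, in WT (left) and Aim2-/- cells (right). Most nuclear points lie above 0 with medians between 0.58 and 0.95, while the pooled mitochondrial points lie between -0.59 and 0.66.

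Genes that transcribe, copy and process mitochondrial nucleic acids moved in both directions. In the transcription list 4 of 11 rose and 1 fell in WT cells (median 0.14), and 3 rose and 3 fell in Aim2-/- cells (median -0.21), so that fewer of them passed than the 76.9% and 79.3% of all genes tested. Mrpl12, a mitochondrial ribosomal protein that also binds the mitochondrial RNA polymerase, rose from 43.4 ± 5.18 to 169 ± 10.3 CPM in WT cells (log2 fold change 1.93, adjusted p = 7.79e-08), Mterf4 rose by 1.38 and Mterf3 fell by 0.81. Tefm, the transcription elongation factor, rose by 1.46 in WT and 1.41 in Aim2-/- cells. Tfb2m, needed for promoter melting, fell by 0.48 in Aim2-/- cells and had a value of -0.60 in WT (SE 0.30, adjusted p = 0.0970).

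All 14 genes of the mitochondrial DNA replication list passed in both genotypes, 7 higher and 7 lower each time, where 76.9% (WT) and 79.3% (Aim2-/-) of all genes tested passed with about as many higher as lower. Dna2, a nuclease-helicase that acts in the nucleus and the mitochondrion, rose by 5.87 in WT and 6.49 in Aim2-/- cells, and Ssbp1, the mitochondrial single-strand binding protein, rose by 0.77 and 0.69, and Mgme1 by 1.48 and 1.52. Tk2 and Dguok, the mitochondrial kinases that salvage deoxynucleosides, fell by 2.46 and 1.66 in WT and by 2.55 and 1.86 in Aim2-/- cells. In the RNA processing and stability list, 13 of 20 rose and 4 fell in WT cells (median 0.67), and 13 rose and 3 fell in Aim2-/- cells (median 0.72). Lrpprc, which with its partner Slirp keeps heavy-strand mRNAs stable, rose from 60.9 ± 1.71 to 143 ± 5.15 CPM in WT cells (log2 fold change 1.20, adjusted p = 8.64e-08), the exonuclease Rexo2 rose by 1.95, and Ptcd1 and Hsd17b10, which act on mitochondrial transfer RNA precursors, fell by 0.61 and 0.63. Fastkd3 rose by 1.65 in WT and 2.05 in Aim2-/- cells.

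Between the genotypes none of these nuclear lists held a gene that passed. In Tn cells 72 of the 74 subunit rows of complexes I, III, IV and V had values above 0 with a median of 0.21. Over all 13441 genes tested, 7081 had values above 0, with a median of 0.01. Of the 74 rows, 17 had an unadjusted edgeR p below 0.05, a larger share than the 1389 of all genes tested. Cox7c had the smallest (log2 difference 0.31, adjusted p = 0.385). In Treg cells 70 of the 74 were above 0 with a median of 0.06, beside 6628 of all 13221 genes tested with a median of 0.00042. There edgeR gave 0 of the 74 an unadjusted p below 0.05, against 304 of the 13221. The nuclear subunits were not tested as a set.

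The 10 genes differed in how closely they followed each other between libraries of a group. On log2 CPM centred on the group means over 16 libraries, Pearson's r with the mean of the other genes among mt-Nd1, mt-Nd2, mt-Nd4, mt-Nd5, mt-Nd6 and mt-Cytb was 0.94 to 0.99 for these 6. It was 0.85 for mt-Co1, 0.68 for mt-Atp6, 0.47 for mt-Co3 and 0.14 for mt-Co2. The nuclear copies Gm10925, Gm28661 and Gm28437 had 0.96, 0.95 and 0.83, above the mitochondrial rows whose sequence they share, whereas Gm29216 had 0.58, below mt-Co1. The points of these correlations share library, depth and scaling, and they are given as a description.

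The rows outside the 10 genes whose centred levels were most like the mean of the 10 over the 16 libraries were Smc4 (Pearson's r = 0.84), Ebi3 (0.83), Zfp994 (0.82), Zfp518a (0.82) and Gmfb (0.82), out of 14569 genes compared. That mean gives mt-Co3, whose levels as deposited spread widest on the log2 scale, the most influence. The named rows were the highest of many and carry no test.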

How the data were processed

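The authors made stranded mRNA libraries, aligned single-end reads of 51 nt by STAR (GRCm38) and estimated gene abundance by RSEM with GENCODE m15; versions and the strand setting are not given in the sources used here. The deposited values are RSEM expected counts for 53090 genes in 1 table a library, without normalization or filter. Groups and replicate numbers came from the sample titles. The genes and lists were chosen with earlier results of these data known.

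Expected counts were rounded. A gene was tested where 4 or more libraries of a comparison had 10 or more counts, with edgeR 4.0.16 (two-sided robust quasi-likelihood F test, TMM, 8 libraries per comparison, 16 for the difference of genotype effects), with Benjamini-Hochberg adjustment over all genes and a threshold of 0.05. The study's own tool, limma-voom (limma 3.58.1), and DESeq2 1.42.0 were alternatives, with other size factors, filters, subsets of libraries, a replicate block, and offsets for GC content and length (spline, 5 df). Reads carry no molecular identifiers, so the floor of 3 counts covers counting error only. Windows and coordinates came from GENCODE M21 (GRCm38), which held 98.7% of the rows. The fits were tested on simulated data. All 10 genes, the other mitochondrial rows, per nuclear list and comparison up to 2 called genes in each direction with the smallest p (up to 2 uncalled where none passed), and the 5 rows most correlated with the mean of the 10 were to be named; those shown are the main ones. Slirp is named as a partner, and other genes named outside this rule were chosen after their values were seen.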

Additional observations from a re-analysis of the deposited data

Results flagged for a closer look

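Samples standing apart were looked for in 48 sets of 4 libraries (the 10 genes and 2 shares of the library, in each group), by Dixon's ratio of the gap to the range against its 95% critical value. Chance alone gives about 1 in 20, and 4 were found. mt-Nd5 in Aim2-/- Tn replicate 2 was at 1243 CPM while the other libraries of the group lay at 725 to 782 CPM. mt-Co1 in Aim2-/- Treg replicate 4 was at 7074 CPM while the others lay at 4763 to 5091 CPM. mt-Co3 was at 0.113 CPM in Aim2-/- Tn replicate 3, with the others at 27.7 to 32.2 CPM, and at 103 CPM in WT Treg replicate 1, with the others at 4.08 to 16.1 CPM. Pooled with its nuclear copies, mt-Co3 varied 2.38-fold over all 16 libraries.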

How the results depend on the processing

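The genes called with culture in WT cells, 5 of 10, were 3 with replicates 1 and 2 only, 1 with replicates 3 and 4 only and 3 to 5 with 1 library left out (3 without WT Treg replicate 2 or 4). In Aim2-/- cells the 4 became 2 with no filter on low counts and 3 to 5 with 1 library left out. The other alternatives gave 4 or 5 in WT and 3 to 6 in Aim2-/- cells, and 0 was called in all alternatives for the genotype effects and their difference. Single genes turned direction in 3 fits with a call on either side: mt-Nd6 in WT with GC and length offsets (0.071) and with these and the replicate block (0.068), and mt-Co3 in Aim2-/- cells pooled with copies (-0.54); beyond the pooling itself, the cause was not tested. In 126 of 1211 fits a gene that was called in neither fit changed sign. The log2 ratio of mt-Nd6 changed by -0.29 to -0.23 (WT) and -0.40 to -0.30 (Aim2-/-) with culture when 1 library was left out, and by -0.18 and -0.28 with the other 9 pooled with copies. Over all genes, calls between genotypes went from 31 to between 15 and 509 in Tn, from 29 to between 4 and 52 in Treg cells, and from 3 to between 0 and 10 for their difference.

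Equal replicate numbers are not stated to mark a shared mouse or day, and deviations of equally numbered libraries correlated at -0.04 to 0.40 over 14669 genes, over 0.1 for every number in no comparison. With the replicate block 5 and 4 genes were called with culture, 0 between genotypes and 0 for the difference, and the mt-Nd6 ratios changed by -0.27 and -0.36 with p = 0.125, the smallest an exact sign-flip test of 4 pairs allows, and differed by 0.02 (p = 0.750, exact) and -0.07 (p = 0.125, exact) between genotypes.

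mt-Co2 had 0 unique windows, so its level cannot be separated from its copies by such reads at any depth. mt-Co3 and mt-Atp6 had 1 and 3 unique windows. Without counts on these, their levels cannot be separated from their copies either.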
